A study of Mus musculus with 36 samples.

Results

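Octanal, a straight-chain aldehyde with a citrus-like odor, was compared with no odor in the olfactory epithelium of C57BL/6J wild-type male mice aged 8 weeks. The comparison takes in every gene of the table and 6 of the 36 libraries of the series: 3 from mice given octanal and the 3 no-odor controls of the same set, which the labels name as a batch. Each mouse was alone in an odor-free chamber for 4 h. A filter paper carrying 10 µL of undiluted odorant, or an empty paper for the controls, was then placed in the chamber for 90 min, and the tissue was taken at once. The set also holds 3 libraries after cis-3-hexenol and 3 after a 1:1 mixture of octanal and cis-3-hexenol. Decanal, a straight-chain aldehyde with a longer chain, was given at the same volume and time in another set (3 libraries, with 3 controls of its own). No mouse carried a transgene or a deleted gene.

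Each olfactory sensory neuron expresses a single odorant receptor gene out of a large family, the Olfr genes of the mouse. An odorant that binds the receptor acts through the G protein Golf and adenylyl cyclase to open a cyclic nucleotide-gated channel, and the neuron fires. Firing leads to phosphorylation of ribosomal protein S6 (pS6). The libraries were made from RNA that came down with an antibody to pS6, so a receptor gene gains reads when its neurons hold more pS6 or more of its RNA. The antibody does not select for neurons: ribosomes with pS6 from any cell of the tissue are taken. Libraries of input RNA were not analysed here.

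Library totals were 16.04 to 19.23 M counts in the controls and 18.58 to 21.51 M with octanal. The no-odor controls of this set stood apart in blood RNA. The 12 markers of red blood cells in the table summed to 82159 to 88272 CPM (counts scaled to a common library total, here without further scaling) in these 3 libraries. They summed to 16542 to 21981 in the no-odor controls of the decanal set and to 32387 to 34717 in those of the remaining set. With octanal the sum was 6944 to 20505, with cis-3-hexenol 20731 to 31172 and with the mixture 9059 to 19973. The part of this difference in the results below was not tested. In the direct test of octanal against cis-3-hexenol these controls are no part of the difference. They do enter its filter, scaling and estimate of spread, and the red blood cell sums of octanal and cis-3-hexenol did not overlap either. Fewer cells of a type and less RNA per cell cannot be told apart in such bulk samples, and each CPM is a share of the precipitated RNA.

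Octanal raised a broad set of receptor genes. Enough counts for the test were found for 902 of 1407 receptor genes, and 195 were higher and 28 lower at an adjusted p under 0.05 (edgeR quasi-likelihood test, Benjamini-Hochberg over all 19568 genes tested). Over all genes tested, 17.9% were higher and 14.4% lower by the same rule, against 21.62% and 3.104% of the receptor genes. When libraries were scaled to the median receptor gene instead, the split over all genes (3509 higher and 2812 lower, 32.3% in all) became 1593 and 3391. The receptor genes then stood at 183 higher and 43 lower. The raised receptors changed by a median of 2.79 (log2, range 0.65 to 7.63). The upper end is the fitted value of Olfr559, which had no count in the controls, and is no measure of size. Of the raised receptors, 33 rose by over 4 on the log2 scale, 111 by 2 to 4, 43 by 1 to 2 and 8 by up to 1. Over all 902 receptors tested, 206 (22.84%) had all 3 octanal libraries above all 3 controls, near the 21.8% of all genes tested. The 679 receptor genes not called had a median log2 change of -0.19. Leaving out octanal replicate 1 gave 160 raised receptors, the lowest number among the alternatives run.

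Receptor RNA as a whole was higher with octanal. All receptor genes together took 0.235%, 0.279% and 0.244% of the counts in control replicates 1 to 3, and 0.738%, 0.499% and 0.635% in octanal replicates 1 to 3, so the groups did not overlap. The means were 0.253% ± 0.0233 and 0.624% ± 0.120 (SD, n = 3), with an exact permutation p of 0.1 (2-sided), the smallest that 3 against 3 allows. The 195 raised genes, a share that their choice by these same values in part fixes, made up 26.03% ± 0.768 of the receptor CPM in controls and 74.5% ± 4.36 with octanal (SD, n = 3). The 12 receptors with the largest rise in CPM, also chosen by these same values, went from 6.13% ± 0.500 to 27.6% ± 0.998 of it. All receptor genes other than the 195 summed to 1871 ± 217 CPM in controls and 1670 ± 213 with octanal, values that overlapped. This remainder too depends on the choice of the 195.

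Markers of mature sensory neurons moved with the receptors. Their summed CPM was 7531, 9190 and 9861 in the controls and 27393, 19585 and 18986 with octanal. The ratio of receptor CPM to marker CPM was 0.297, 0.302 and 0.261 in controls and 0.290, 0.289 and 0.336 with octanal, so that these groups overlapped (exact permutation p = 0.6, 2-sided).

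The 12 receptors with the largest rise in mean CPM were Olfr15, Olfr1349, Olfr1463, Olfr1427, Olfr455, Olfr332, Olfr1384, Olfr1364, Olfr370, Olfr124, Olfr6 and Olfr695. Olfr15 was at 26.8, 23.7 and 29.2 CPM in the controls and at 185.7, 175.0 and 332.9 CPM after octanal, a difference of 3.12 on the log2 scale (SE 0.258, adjusted p 9.22e-07). Olfr1349 went from 6.94, 13.5 and 12.5 to 275.0, 118.4 and 189.0 CPM, by 4.15 (SE 0.301, adjusted p 2.30e-07). In both genes the lowest octanal library lay far above the highest control. Olfr332 had the least spread of the 12 on the log2 scale and the smallest p of the receptors named. It stood at 6.198, 8.443 and 6.69 CPM without odor and at 168.8, 128.8 and 178.1 CPM with octanal, a change of 4.48 (SE 0.183, adjusted p 7.63e-10). Olfr1384 varied most among mice, with 252.1, 128.1 and 83.1 CPM after 3.37, 5.31 and 6.50 in controls (4.95, SE 0.452, adjusted p 2.58e-06). The other 8 rose by 3.02 (Olfr124) to 4.46 (Olfr1463). Octanal replicate 1 was the highest library for Olfr1349, Olfr1463, Olfr1427, Olfr455, Olfr1384, Olfr370, Olfr6 and Olfr695, and replicate 3 for Olfr15, Olfr332, Olfr1364 and Olfr124.

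Olfr2, the mouse counterpart of the rat I7 receptor, is the receptor best known to respond to octanal. It was at 6.99, 2.78 and 2.76 CPM in controls and at 18.9, 42.6 and 28.4 CPM after octanal, a rise of 2.82 on the log2 scale (SE 0.356, adjusted p 3.91e-05). This was close to the median of the 195 raised genes, so many receptors changed by more than the known one. With cis-3-hexenol Olfr2 stood at 1.98, 1.89 and 3.41 CPM, and octanal was above cis-3-hexenol by 3.64 (adjusted p 2.08e-05).

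**Figure D1:**
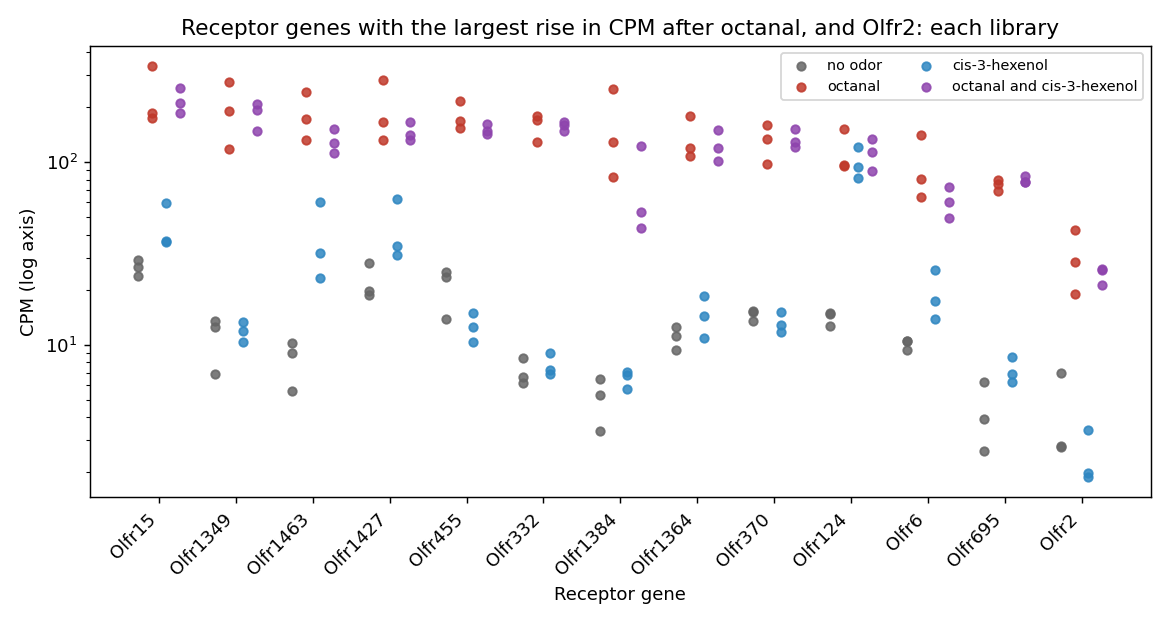
CPM (log axis) of the 12 receptor genes with the largest rise and of Olfr2 in each of the 12 libraries of the set, 1 point a library, by odor. The octanal and mixture points of each gene lie above its no-odor points, and Olfr124 is also high with cis-3-hexenol (81.5 to 120.3 CPM).

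The largest log2 changes included genes with few counts or none in the controls. Olfr559 had no count in the 3 controls and 27, 33 and 8 counts with octanal, which is at least 7.14-fold higher against a floor of 3 counts per library. Olfr1166 also had none and then 23, 13 and 11 counts, at least 4.81-fold higher. Both have a copy with near-identical coding sequence (Olfr33 at 95.37% and Olfr1170 at 96.2%), so their reads may be split and their values are uncertain. The same holds for Olfr819 (copy Olfr247, 99.27% identical), which went from 0.0992, 0.354 and 0 to 5.26, 9.27 and 9.67 CPM. Without such a copy, Olfr716 rose from 1.88, 2.66 and 1.64 to 78.8, 51.4 and 79.1 CPM (5.08, SE 0.247, adjusted p 3.78e-09). Olfr1383 rose from 1.74, 1.65 and 1.71 to 57.01, 38.2 and 76.9 CPM (5.07, SE 0.259, adjusted p 6.10e-09). Olfr13 (5.08), Olfr1384 (4.95, above) and Olfr509 (4.94) completed the 8 largest.

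Lowered receptors were fewer, and 14 of the 28 fell by more than 1 on the log2 scale. The 6 with the largest fall in CPM were Olfr536, Olfr1264, Olfr728, Olfr281, Olfr358 and Olfr523, with log2 changes of -0.59, -0.74, -0.80, -0.82, -0.86 and -0.66. Olfr1264 went from 31.1, 24.7 and 25.9 CPM to 14.31, 17.96 and 16.59 CPM (SE 0.174, adjusted p 0.00434), without overlap between the groups. Over all 902 receptors tested, 80 (8.869%) had all octanal libraries below all controls, against 20.3% of all genes tested. Olfr281 went from 13.6, 11.04 and 11.9 to 5.56, 4.96 and 10.2 CPM, and octanal replicate 3 came near the controls (SE 0.272, adjusted p 0.0308). The calls of Olfr536, Olfr281 and Olfr523 were lost when single libraries were left out. The number of lowered receptors, 28, was 18 without control replicate 2 and 13 without octanal replicate 1.

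Receptor genes fall into class I, the older group that resembles fish receptors, and class II. Of 99 class I genes tested 11 were higher and 1 lower, and of 776 class II genes 175 were higher and 25 lower (11.11% and 22.55% higher). Among 10 receptor pseudogenes tested 1 was higher and 2 were lower. Of 7 trace amine-associated receptors tested, which sense volatile amines in other sensory neurons, 0 were called by edgeR or DESeq2 and 0 had an unadjusted p under 0.05. Their median log2 change was -0.14 and ran from -0.46 to 0.18 over the alternatives.

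Raised receptors were often relatives of each other. For each receptor the closest relative was taken as the tested receptor gene with the most similar coding sequence over at least 600 bases. That relative was raised for 114 of 188 raised receptors (60.64%) and for 74 of 687 that were not raised (10.77%). Near-identical copies can share reads, so pairs under 90% identity were counted apart: the relative was raised for 46 of 91 raised receptors (50.55%) and for 47 of 408 others (11.52%). Order along the chromosome showed the same direction: a neighbouring receptor gene was raised for 123 of 192 raised receptors (64.06%) and for 177 of 703 others (25.18%). Relatives often lie side by side, so these counts are not independent, and they are a description without a test.

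**Figure D2:**
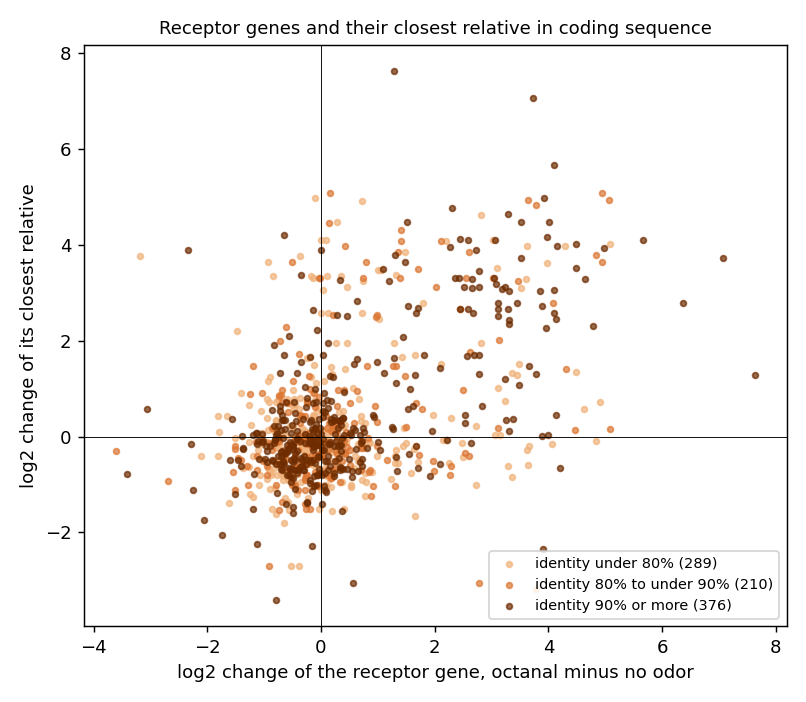
Log2 change (octanal minus no odor) of each receptor gene on the x axis and of its closest relative in coding sequence on the y axis, 1 point a gene, by identity class. Points in the upper right are pairs with both genes raised, and points along the axes are raised genes whose relative stayed near 0.

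Some close relatives differed in their values, and the coding stretches in which they differ most are shown. These pairs were chosen for that difference, so the values are a description. The stretches have 90 bases, from the GENCODE vM21 transcripts of GRCm38, 5′ to 3′, counted from the first base of the start codon. Capitals mark the bases that differ within a pair. Olfr1408 rose from 1.14, 3.84 and 4.53 to 37.9, 34.3 and 66.4 CPM, while Olfr1406, 92.6% identical, was at 1.98, 6.02 and 3.81 and then at 2.75, 3.37 and 5.67 CPM. Bases 682 to 771 hold 18 of their 69 differences:
Olfr1408: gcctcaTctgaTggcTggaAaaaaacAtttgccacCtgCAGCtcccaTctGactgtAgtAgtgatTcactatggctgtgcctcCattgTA
Olfr1406: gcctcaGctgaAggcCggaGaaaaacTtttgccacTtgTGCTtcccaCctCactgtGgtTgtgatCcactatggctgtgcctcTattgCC

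Olfr1463 is one of the 12 receptors with the largest rise. It went from 5.55, 10.3 and 8.99 to 241.8, 170.9 and 132.0 CPM. Its relative Olfr1466, 89.1% identical, stood at 0.694, 1.30 and 1.12 and then at 1.80, 0.0591 and 1.51 CPM. Bases 202 to 291 hold 19 of the bases in which they differ:
Olfr1463: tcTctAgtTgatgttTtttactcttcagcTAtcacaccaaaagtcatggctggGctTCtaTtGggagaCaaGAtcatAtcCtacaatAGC
Olfr1466: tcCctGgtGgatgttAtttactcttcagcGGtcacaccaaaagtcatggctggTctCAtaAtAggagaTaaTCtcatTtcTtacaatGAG

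In contrast, Olfr1381 and Olfr1380 both rose and differ in 19 of 933 coding bases. Olfr1381 went from 1.29, 1.95 and 1.44 to 15.9, 5.97 and 9.08 CPM, and Olfr1380 from 1.64, 1.83 and 3.94 to 40.2, 28.2 and 39.3 CPM. Reads of this pair can be split between them, so their values are uncertain. Bases 844 to 933 hold 7 of those differences:
Olfr1381: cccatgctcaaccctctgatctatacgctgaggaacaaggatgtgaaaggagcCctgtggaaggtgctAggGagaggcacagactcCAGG
Olfr1380: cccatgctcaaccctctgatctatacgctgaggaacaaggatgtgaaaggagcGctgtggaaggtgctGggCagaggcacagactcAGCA

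Octanal and cis-3-hexenol, an alcohol with a leafy odor, were tested against each other in the fit of 12 libraries. The controls were no part of the difference but entered the filter, scaling and estimate of spread. Octanal was above cis-3-hexenol for 142 receptor genes and below it for 111, where 12% of all genes tested were above and 8.98% below (21% in all). When scaled to the median receptor gene, 167 receptor genes were above and 63 below. Of the 195 receptors raised by octanal 138 were also above cis-3-hexenol and 6 were below it. The octanal libraries by which they were chosen enter this test too, which in part fixes the split. Olfr455 was at 14.9, 12.6 and 10.3 CPM with cis-3-hexenol and lay 3.82 lower there than with octanal (SE 0.224, adjusted p 3.28e-08). Olfr124 was the exception among the 12 largest rises. It stood at 120.3, 94.4 and 81.5 CPM with cis-3-hexenol and at 96.70, 94.97 and 151.0 CPM with octanal, and the difference of 0.21 had a 95% interval of -0.21 to 0.63 (adjusted p 0.470). Olfr281, lower with octanal, was at 76.5, 38.8 and 43.6 CPM with cis-3-hexenol, 2.94 on the log2 scale above octanal (SE 0.277, adjusted p 9.02e-06).

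In the mixture the receptors raised by octanal remained at high levels. Octanal, cis-3-hexenol and the mixture share their controls, so the values stand side by side. Log2 changes with octanal and with the mixture were 3.12 and 3.03 for Olfr15, 4.15 and 4.06 for Olfr1349, 4.48 and 4.47 for Olfr332, and 4.14 and 4.23 for Olfr695. Those with cis-3-hexenol were 0.74, 0.11, 0.12 and 0.77. For Olfr1384 the change was 4.95 with octanal and 3.86 with the mixture. The 12 largest rises together made up 21.4% to 23.7% of the receptor CPM in the mixture, 26.5% to 28.5% with octanal and 6.61% to 8.66% with cis-3-hexenol. These 12 were chosen by their rise with octanal, which in part fixes the order of these shares.

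Octanal and decanal differ in chain length alone and were given at the same volume for the same time. Each was set against the controls of its own set, and the 2 sets are separate batches. The change with octanal exceeded that with decanal for 150 receptor genes and fell short of it for 41, of 971 receptor genes tested (15.45% and 4.222%), where 16.1% of all genes tested were above and 13.1% below (29.2% in all). Of the 195 raised receptors 123 responded more to octanal and 9 less, a split in part fixed by their choice for the change with octanal. Receptors higher with decanal than its own controls numbered 71 of 912 tested (7.785%, against 10.8% of all genes tested), and 50 were among those raised by octanal, which is 70.42% of the decanal list and 25.64% of the octanal list.

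Single receptors showed each kind of pattern. Olfr15 changed by 3.12 with octanal and by -0.81 with decanal (difference 3.90, SE 0.468, adjusted p 2.63e-06). Olfr6 changed by 3.24 and -2.04 (difference 5.25, SE 0.562, adjusted p 8.56e-07). Its controls in the decanal set were at 80.3, 18.02 and 19.7 CPM, so control replicate 1 lay far above the other two. Olfr2 changed by 2.82 and -0.80 (difference 3.61, adjusted p 9.29e-05). Olfr332 rose with both and more with decanal, by 4.48 and 5.18 (difference -0.73, SE 0.206, adjusted p 0.0103). For 4 of the 8 receptors with the largest log2 changes no difference was called. The difference was 0.01 for Olfr1383 (95% interval -0.61 to 0.63), 0.32 for Olfr716 (-0.33 to 0.98) and 0.74 for Olfr509 (-0.15 to 1.63). For Olfr559, with no count in the octanal set's controls, the adjusted p was 0.0753 and the fitted size is no measure. The controls of the sets differed for some of these genes: Olfr124 was at 72.5, 34.3 and 40.5 CPM in those of the decanal set and at 13.12, 15.09 and 15.54 CPM in those of the octanal set, in the joint fit. Of the 16 raised receptors named whose responses differed by the test, 7 had all decanal-set controls above all octanal-set controls. The part of that in the differences was not tested.

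Immediate early genes encode transcription factors that neurons make within minutes of firing. Of 28 on the list 11 were higher and 1 was lower (39.29% and 3.571%, against 17.9% and 14.4% of all genes tested). The median log2 change was 0.40, against -0.04 for all genes tested. Nr4a1, an orphan nuclear receptor, was at 52.2, 11.6 and 16.7 CPM in controls and at 586.6, 254.0 and 293.0 CPM with octanal (3.81, SE 0.497, adjusted p 5.27e-05). Fosb, a subunit of the AP-1 factor, went from 5.01, 1.36 and 0.919 to 46.4, 59.0 and 19.5 CPM (4.04, adjusted p 6.98e-05). Control replicate 1 was the highest control for both and still lay below every octanal library. Nr4a2 (3.02), Maff (2.48), Egr4 (2.31) and Nfil3 (2.09) also rose. Fos, the usual marker of neuronal activity and named here outside the rule, rose by less: from 60.3, 25.5 and 24.7 to 94.5, 85.8 and 97.5 CPM (1.33, SE 0.315, adjusted p 0.00489). Arc, Npas4 and Junb, also used as activity markers in brain neurons, did not pass the test. Arc was at 0.25 (adjusted p 0.585), Npas4 at 0.57 with under 1 CPM in every library (adjusted p 0.597) and Junb at 0.06 (adjusted p 0.807). Fosl2 was lower by -0.62. Against cis-3-hexenol 8 of the 28 were higher and 1 was lower.

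Promoters of the immediate early genes that rose carry the short sequence TGACG, the core of the site bound by the factor CREB. It was searched as TGACG on either strand (CGTCA on the other) in the 250 bases before the gene start, in the RefSeq promoters of GRCm38.p6. All 8 raised immediate early genes with a promoter in that table held it, as did 9 of the 14 others. Of all genes of the table with a promoter 19.8% held it, and the shares were 34.1% of genes called higher, 20.5% of genes called lower and 26.3% of genes not called. A match is only a match of letters. The promoters of 4 raised genes are shown, with each match in capitals. These had the largest log2 changes among the raised immediate early genes with a single promoter in that table.
Fosb, chr7:19310046-19310295, minus strand: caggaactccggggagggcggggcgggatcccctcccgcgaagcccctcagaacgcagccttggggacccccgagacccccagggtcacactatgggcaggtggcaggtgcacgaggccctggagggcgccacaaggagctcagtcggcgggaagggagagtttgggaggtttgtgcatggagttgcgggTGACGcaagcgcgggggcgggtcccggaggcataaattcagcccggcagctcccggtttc
Nr4a1, chr15:101266596-101266845, plus strand: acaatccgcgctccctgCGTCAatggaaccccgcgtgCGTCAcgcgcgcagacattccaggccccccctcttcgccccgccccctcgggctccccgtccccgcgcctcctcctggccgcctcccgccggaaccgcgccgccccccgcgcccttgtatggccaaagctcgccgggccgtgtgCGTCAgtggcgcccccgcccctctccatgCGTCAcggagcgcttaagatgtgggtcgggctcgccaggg
Nr4a2, chr2:57124004-57124253, minus strand: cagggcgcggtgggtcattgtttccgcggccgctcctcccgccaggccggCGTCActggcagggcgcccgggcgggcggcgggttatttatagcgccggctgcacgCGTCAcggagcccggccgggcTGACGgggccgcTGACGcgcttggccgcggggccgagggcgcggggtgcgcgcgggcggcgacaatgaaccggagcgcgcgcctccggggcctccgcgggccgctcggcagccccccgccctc
Egr4, chr6:85513590-85513839, minus strand: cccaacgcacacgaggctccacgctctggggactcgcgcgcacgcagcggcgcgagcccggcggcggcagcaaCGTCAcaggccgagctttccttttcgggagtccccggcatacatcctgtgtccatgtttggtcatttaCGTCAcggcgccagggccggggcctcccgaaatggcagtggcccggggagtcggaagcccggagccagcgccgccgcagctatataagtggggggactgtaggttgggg

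Some genes that damp activity signals rose. Of 23 feedback genes 8 were higher, 3 lower and 12 not called (34.78% higher and 13.04% lower, median log2 change 0.23). Among all genes tested 17.9% were higher and 14.4% lower, so the share lower was near that of all genes. When scaled to the median receptor gene 6 were higher and 4 lower (median 0.03), and there was 1 lower without control replicate 1 or octanal replicate 1. Dusp14, a phosphatase that acts on MAP kinases, was at 136.9, 138.7 and 146.6 CPM in controls and at 1089, 795.3 and 511.1 CPM with octanal (2.50, SE 0.270, adjusted p 1.11e-05). Dusp5 (1.52), Dusp4 (1.40), Gem (1.63) and Dusp1 (0.92) rose too. Gadd45g, Pim1 and Pde4b were lower, by -0.90, -0.93 and -0.53.

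Sensory neurons also have genes whose level follows their long-term activity, and 13 of the 14 on that list were higher, with a median of 1.98. Kcng1, a modulatory potassium channel subunit, was at 6.64, 4.67 and 4.79 CPM without odor and at 144.7, 63.5 and 77.3 CPM with octanal (4.14, SE 0.306, adjusted p 2.67e-07). S100a5, a calcium-binding protein of active sensory neurons, went from 1198, 1064 and 928.4 to 4397, 6845 and 3487 CPM (2.21, SE 0.230, adjusted p 8.60e-06). The adhesion gene Pcdh10 rose by 3.73, Lrrc3b by 3.43, Heg1 by 2.47 and Pcp4l1 by 2.02. Rrad alone did not pass (0.79, adjusted p 0.0631). The summed markers of mature sensory neurons were 2.48-fold higher in the same libraries, and their part in these changes was not tested. Octanal was above cis-3-hexenol for 13 of the 14.

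**Figure D3:**
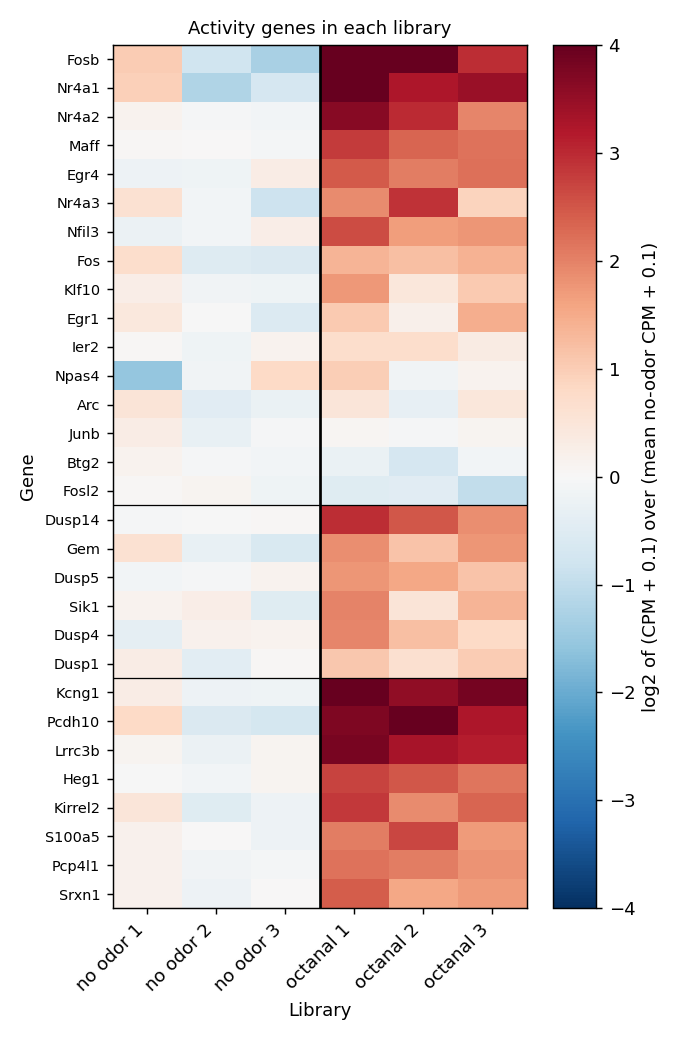
Log2 of CPM over the mean no-odor CPM (0.1 added to both) for 30 activity genes in the 6 libraries. The blocks are, from the top, immediate early, feedback and activity-dependent genes, and the genes shown were chosen after their values were seen. Rows from Fosb to Ier2 and all rows of the lower blocks are red in the octanal columns, while Arc, Junb and Btg2 are pale.

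Most genes of odor transduction were higher. Of 14 transduction genes 12 were higher (median 1.33), several of which are also mature neuron markers. Cnga2, a subunit of the cyclic nucleotide-gated channel, was at 149.1, 219.1 and 187.6 CPM in controls and at 861.9, 422.2 and 589.0 CPM with octanal (1.75, SE 0.249, adjusted p 9.83e-05). The Golf subunit Gnal (1.29), the cyclase Adcy3 (1.55), the chloride channel Ano2 (1.69) and the Golf partner Ric8b (1.62) rose. Slc12a2 (0.11) and Reep6 (-0.10) did not pass. Among 16 genes that end the response 8 were higher and none lower (median 0.46). Pde1c, a phosphodiesterase of the cilia, went from 94.7, 92.3 and 91.1 to 377.2, 206.8 and 254.4 CPM (1.59, adjusted p 2.24e-05). Rgs7, a regulator of G protein signalling, rose by 1.79. The chaperones that bring receptors to the surface rose: Rtp1 by 1.38 and Rtp2 by 1.69, among 7 of 12 genes of receptor choice and trafficking. That count was 4 without octanal replicate 1 and 3 when scaled to the median receptor gene.

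About as many genes of secretion and release were called higher as not, in libraries whose summed mature neuron markers were 2.48-fold higher. The part of those markers in these changes was not tested. Of 21 neuropeptide and granule genes 10 were higher and 1 lower (47.62% and 4.762%, median 0.58), against 17.9% and 14.4% of all genes tested. Scg3, a secretogranin of dense-core granules, was at 28.01, 29.9 and 25.9 CPM in controls and at 126.8, 104.9 and 104.8 CPM with octanal (2.01, SE 0.148, adjusted p 2.66e-07). Chga (1.95), Chgb (1.89) and the prohormone convertase Pcsk1 (2.83) rose, and Npy, a marker of ensheathing glia in this tissue, was lower (-2.003). All 7 raised genes of this list with a promoter held TGACG, as did 4 of the 7 others. The match was less frequent in the other lists searched. It was held by 3 of 5 raised feedback genes with a promoter and 3 of 13 others. Of the raised activity-dependent sensory neuron genes 4 of 10 held it. Of 28 synaptic release genes 15 were higher and 1 lower (median 0.66). The calcium sensor Vsnl1 went from 9.17, 11.2 and 9.71 to 39.3, 41.3 and 38.1 CPM (1.98, SE 0.137, adjusted p 1.76e-07), with very little spread. Syt4 (2.22), Snap25 (1.88) and Rab3a (1.65) rose, while the presynaptic scaffold gene Bsn (-0.20, adjusted p 0.552) did not pass. Of 20 axon sorting genes 9 were higher and 2 lower (median 0.28), and 6 were higher when scaled to the median receptor gene (median 0.08). Kirrel2 (2.40) and Epha5 (1.67) were among those that rose. Nrp2 was lower (-0.79). The number lower was 1 without control replicate 1 or octanal replicate 1.

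Ion channel genes were called about as often as other genes. Of 71 potassium channel subunits tested 14 were higher and 8 lower (19.72% and 11.27%), and of 39 sodium and calcium channel subunits 7 and 7 (17.95% each). Over all genes tested 17.9% were higher and 14.4% lower. When scaled to the median receptor gene the counts were 11 higher and 12 lower, and 4 higher and 10 lower. Besides Kcng1, Kcnmb3 (2.38), Kcna5 (1.42) and Scn3b (1.56) rose, and Kcnn4 (-1.99) and Cacna1g (-1.87) were lower. The number of lowered potassium channel genes was 3 or 4 without any 1 control or without octanal replicate 1, and 5 without octanal replicate 2. That of the sodium and calcium channel genes was 4 without control replicate 1 or 3 or octanal replicate 1 or 3.

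**Figure D4:**
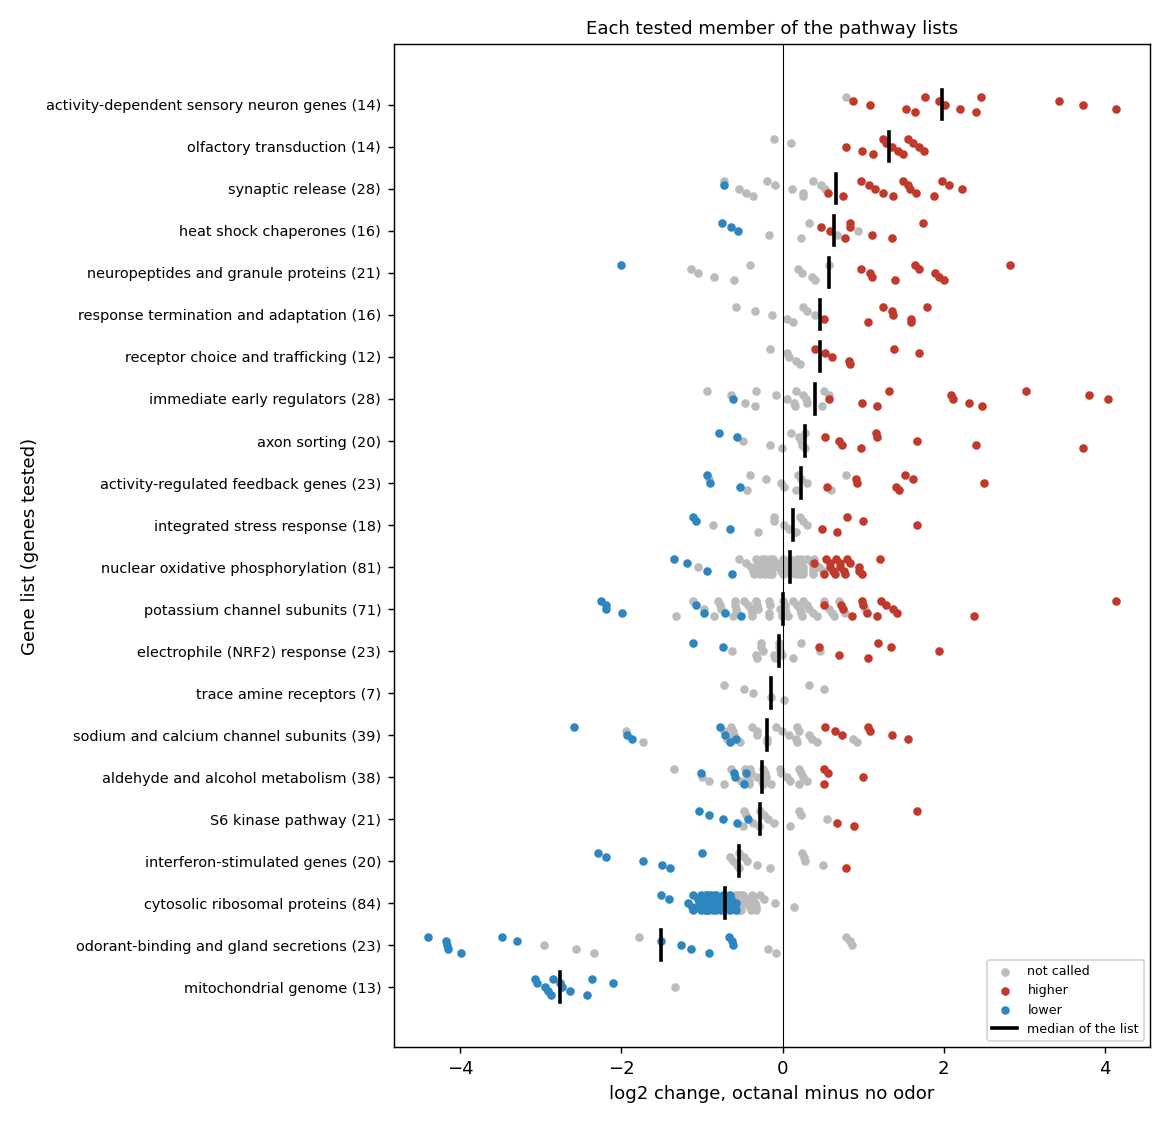
Log2 change (octanal minus no odor) of each tested gene of the 22 pathway lists other than the receptor genes, 1 point a gene, with the median of each list as a black bar. Activity-dependent and transduction genes lie at the top (medians 1.98 and 1.33), and ribosomal protein and mitochondrial genes near the bottom of the plot (-0.72 and -2.76).

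Some housekeeping groups were lower. Of 84 cytosolic ribosomal protein genes tested 51 were lower and none was higher (median -0.72). Rps28 went from 96.75 ± 25.8 to 36.5 ± 7.63 CPM (SD, n = 3), by -1.41 (adjusted p 7.12e-04). The number lower was 20 without control replicate 2, and 15, 80 and 24 without octanal replicates 1, 2 and 3. Rps6, which encodes S6 itself, was at -0.37 (adjusted p 0.128). In the S6 kinase pathway 3 of 21 were higher and 5 lower (14.29% and 23.81%), and 3 were lower without control replicate 3 or octanal replicate 1. Over all genes tested 17.9% were higher and 14.4% lower, and the list was not tested against these shares. The raised genes of the pathway were Ddit4 (1.67), Rheb (0.89) and Sesn2 (0.67).

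RNA of the mitochondrial genome was lower for 12 of 13 genes (median -2.76). The sum of the 13 was 5659, 5960 and 5998 CPM in the controls and 652.2, 937.2 and 1218 CPM with octanal. This group varied widely between groups of the series: on library totals the sum was 505.4 to 672.9 CPM in the controls of the decanal set and 7740 to 22136 with cis-3-hexenol. The nuclear genes of oxidative phosphorylation changed in both directions. Of 81 tested 18 were higher and 4 lower (22.22% and 4.938%, against 17.9% and 14.4% of all genes tested). The share higher was thus near that of all genes. The median of 0.09 was -0.19 without octanal replicate 2, where 23 were lower, and -0.04 when scaled to the median receptor gene. The 18 higher became 6 under the same scaling, and the 4 lower became 2 without control replicate 3 and 1 without octanal replicate 1. Octanal was above cis-3-hexenol for 45 of the 81 and below it for none, where 12% of all genes tested were above and 8.98% below.

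Octanal is a substrate of aldehyde dehydrogenases and reductases. Of 38 genes of that metabolism tested 4 were higher and 5 lower (10.53% and 13.16%, median -0.25). Over all genes tested 17.9% were higher and 14.4% lower, so the share lower was near that of all genes. Adh5 rose by 0.99 (SE 0.156, adjusted p 2.28e-04), from 128.0, 160.8 and 144.3 to 316.8, 308.5 and 237.9 CPM, and Cbr1, Aldh3a2 and Dhrs7 by 0.51 to 0.57. Aox2 (-1.02), Cbr2 (-0.59), Aox3 (-0.60), Akr1b3 (-0.48) and Aldh1a1 (-0.46) were lower. The number higher was 1, 2 and 2 without control replicates 1, 2 and 3. The number lower was 2 and 3 without control replicates 2 and 3, and 3 without octanal replicate 1.

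Stress gene lists differed in the share of genes called. Over all genes tested 17.9% were higher and 14.4% lower, and no list was tested against these shares. Of 16 heat shock genes 8 were higher and 3 lower (50% and 18.75%, median 0.63). The number higher was 5 when scaled to the median receptor gene. The number lower was 1 without control replicate 2 or octanal replicate 1. Hspa8, the constitutive HSP70 chaperone, went from 868.8, 1237 and 1021 to 4682, 3022 and 2779 CPM (1.75, SE 0.246, adjusted p 9.45e-05). Hspa1a (0.68, adjusted p 0.237) and Hspa1b (0.94, adjusted p 0.130), the inducible ones, did not pass. Of 23 genes of the electrophile response 6 were higher and 2 lower (26.09% and 8.696%). Srxn1 (1.95), Nfe2l2 (1.07) and Nqo1 (1.35) were among those that rose, and Hmox1 was at -0.27 (adjusted p 0.365). The 2 lower were 5 without octanal replicate 2 and 1 without control replicate 3 or octanal replicate 1 or 3. Of 18 genes of the integrated stress response 5 were higher and 3 lower (27.78% and 16.67%). The number higher was 3 without control replicate 1 or 2 or octanal replicate 1, and 2 when scaled to the median receptor gene. The number lower was 1 without control replicate 1 or 3 or octanal replicate 1. Of 20 interferon-stimulated genes 1 was higher and 6 lower (5% and 30%, median -0.54), with Rsad2 at -2.29 and Isg15 at -2.20. Blood cell markers were lower in the same libraries (median -2.57 for red blood cells), and their part in this was not tested.

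Markers of mature sensory neurons were higher, and many of those of other cells were lower. All 12 mature neuron markers were higher (median 1.38). Omp, their classic marker, went from 4174, 5099 and 5697 to 14058, 12088 and 9539 CPM (1.25, adjusted p 2.17e-04). Of 12 immature neuron markers 5 were higher and none lower, with Stmn4 at 1.70 and Gap43 at 0.04 (adjusted p 0.903). Those 5 became 3, 2 and 2 without control replicate 1, control replicate 3 and octanal replicate 1. In the epithelium 6 of 10 progenitor markers, 5 of 6 horizontal basal cell markers, 2 of 10 sustentacular cell markers, 3 of 7 microvillar cell markers and 6 of 10 ensheathing glia markers were lower. Among all genes tested 14.4% were lower. Mki67, made by dividing cells, was lower by -1.89. Of the microvillar list Pou2f3 was higher (1.43), and of 8 respiratory ciliated cell markers 1 was higher and 2 lower (1 lower without control replicate 1 or 3 or octanal replicate 1 or 3). The horizontal basal cell count was 3 without control replicate 1 or 2 or octanal replicate 1, and 2 without octanal replicate 2.

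Markers of red blood cells, platelets and neutrophils had the lowest medians after the mitochondrial genome. All 12 red blood cell markers were lower (median -2.57), and their TMM-scaled sum was 78326, 82063 and 92890 CPM in the controls against 7474, 23243 and 15113 CPM with octanal. Hba-a1 changed by -2.36 (SE 0.357, adjusted p 1.68e-04), Rhd by -3.17 and Ermap by -3.38. Lower were also 9 of 10 platelet, 10 of 12 neutrophil, 6 of 9 B lineage, 9 of 10 macrophage and 7 of 8 osteoclast markers, with medians of -2.28, -1.85, -1.58, -1.34 and -1.72. Among supporting tissues 5 of 8 osteoblast, 6 of 8 endothelial and 6 of 7 fibroblast markers were lower. Without control replicate 1 these were 3, 3 and 2, and without octanal replicate 1 the osteoblast and fibroblast counts were 3 and 2. Without octanal replicate 2 the osteoblast count was 3. With cis-3-hexenol 10 of the 12 red blood cell markers were below the same controls, where 3.16% of all genes tested were lower. Octanal was below cis-3-hexenol for 6 of the 12.

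Counts of lowered gland genes depended on single libraries, among them control replicate 3. Of 23 odorant-binding and secreted gland proteins 14 were lower and none higher (median -1.51), and of 8 gland cell markers 5 were lower. The summed odorant-binding and secreted gland proteins stood at 11101, 14124 and 34586 CPM in control replicates 1 to 3. With octanal they stood at 6431, 8759 and 9403 CPM, without overlap. The summed gland cell markers stood at 1419 and 2489 CPM in control replicates 1 and 2 and at 13643 in replicate 3, against 1623, 2393 and 2270 with octanal, so the groups overlapped. Without control replicate 3 the counts were 5 and 2, with 3 and 2 higher. Without octanal replicate 1 they were 5 and 2, without octanal replicate 2 they were 8 and 2, and without octanal replicate 3 they were 9 and 3.

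**Figure D5:**
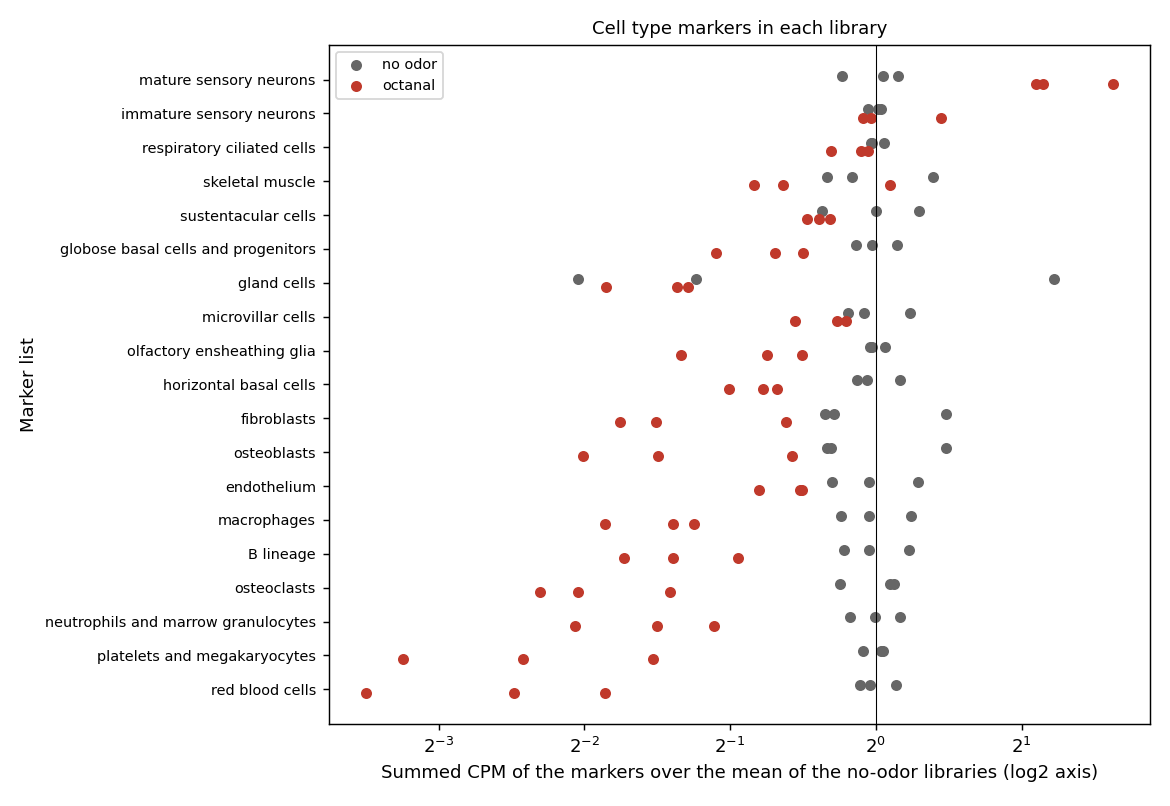
Summed CPM of each marker list in the 6 libraries over the mean of the no-odor libraries (log2 axis), 1 point a library. Mature sensory neuron markers lie to the right with octanal, red blood cell and platelet markers far to the left, and control replicate 3 stands alone for gland cells.

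Among genes other than receptors, 10 that rose and 10 that fell were named for the smallest p, some of them given above. Of those that rose, Gfy, a Golgi protein of sensory neurons, went from 287.1, 385.7 and 305.1 to 2241, 1476 and 1454 CPM (2.40, SE 0.200, adjusted p 1.004e-06). Cmip went from 309.9, 342.7 and 310.2 to 1954, 1262 and 1193 CPM (2.20, adjusted p 1.36e-06), Ak8 rose by 2.04 and Gadl1 by 1.85. Of those that fell, Tent5c went from 99.7, 91.9 and 94.6 to 28.5, 28.7 and 28.5 CPM (-1.74, SE 0.127, adjusted p 2.30e-07). Pdzk1ip1 (-1.84), the platelet integrin Itgb3 (-2.57), the GTP cyclohydrolase Gch1 (-2.45), the red cell skeleton gene Epb41 (-1.40), Ube2l6 (-1.92), Ctse (-3.15) and Cldn13 (-3.02) were lower. In each of these 20 genes the groups did not overlap, as the rule for naming required. Each of the 20 was also called in the same direction with cis-3-hexenol against the same controls (Tent5c -1.182, Rhd -2.021, Cmip 1.16). The controls by which the genes were chosen enter that test too, and their part in these changes was not tested. In the direct test octanal lay further out than cis-3-hexenol for all of them but Ube2l6 (-0.42, adjusted p 0.1026).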

How the data were processed

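RNA precipitated with an antibody to pS6 was sequenced from 36 libraries (12 groups of 3 mice), of which the 12 of the octanal set and the 12 of the decanal set were compared here; the other 12 entered marker sums and 1 alternative fit. The authors deposited expected counts per gene, of which part are fractional. STAR 2.7.10b, Salmon 1.10.1, R 4.4.2 and GRCm39 are named, per the submitters' processing notes, without their roles, and the gene annotation is not given in the sources used here. The kit was stranded, per the labels' protocols. Expected counts divide reads that fit several genes, so similar receptors are not fully separate.

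Counts were rounded. edgeR 4.0.16 in R 4.3.3 (filterByExpr with minimum count 10 and minimum total 15, TMM scaling, glmQLFit with prior count 0.125, glmQLFTest, 2-sided) was fitted over 12 libraries and 4 groups. The octanal and decanal responses were compared in a fit of 24 libraries and 8 groups. Benjamini-Hochberg adjustment covered every gene tested, with calls at an adjusted p under 0.05. SEs come from the change and its F statistic. CPM are TMM-scaled unless said otherwise. P-values measure the spread between 3 mice a group. Intervals and floors cover counting error only where they come from counts. Alternatives used DESeq2 1.42.0 and other scalings, filters, libraries and a replicate block. The receptor to marker ratio, the list counts under each alternative and the pairs under 90% identity were added after seeing the data. The method was tested on simulated data, and no duplicated library was found.

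Symbols come from GENCODE vM21 (52029 of 57010 identifiers). Receptor genes are symbols of Olfr and a number, and class I is MOR family 42 or below. Coding sequences were compared with blastn 2.17.0, and copies were called near-identical at 95% over 600 bases. Genes named were the 12 receptors with the largest rise in CPM, the 8 with the largest log2 change, the 6 with the largest fall in CPM, the 10 other genes each way with the smallest p, all without overlap between groups, Olfr2, and up to 6 called members a list. Other list members were named after their values were seen. The comparison, the gene lists (23 pathway, 19 marker) and the rule were chosen with earlier results of these data known.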

Additional observations from a re-analysis of the deposited data

Results flagged for a closer look

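The response to octanal differed from the response to decanal, by the test of the difference in the fit of 24 libraries (edgeR quasi-likelihood test, adjusted p under 0.05), for 38 of the 46 named genes. By the same test 29.2% of all genes tested differed. All but Olfr2 were named for their values with octanal and its controls. Those values enter the difference, so the count is in part fixed by that choice. The odors were given in separate sets, which the labels name as batches, and each was set against its own controls. Each value is the log2 change with octanal minus that with decanal.

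For receptor genes the difference was above 0 for Olfr15 (3.90), Olfr1349 (2.10), Olfr1463 (5.28), Olfr1427 (2.42), Olfr455 (1.01), Olfr1384 (3.66), Olfr1364 (1.56), Olfr370 (2.08), Olfr124 (4.21), Olfr6 (5.25), Olfr695 (3.35), Olfr1166 (13.35), Olfr819 (5.82), Olfr13 (2.67) and Olfr2 (3.61). It was below 0 for Olfr332 (-0.73), Olfr728 (-1.50) and Olfr358 (-1.70). The value of Olfr1166 rests on groups with no or few counts and is no measure of size.

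For other genes that rose with octanal it was Vsnl1 (0.96), Heg1 (0.82), Scg3 (1.90), Kcng1 (2.79), Lrrc3b (1.86), Gadl1 (1.49), Maff (1.23), Gfy (2.16), Ak8 (2.05) and Cmip (2.17). For genes that fell it was Tent5c (-2.20), Pdzk1ip1 (-2.44), Rhd (-4.91), Itgb3 (-3.03), Ermap (-4.84), Gch1 (-3.37), Epb41 (-1.45), Ube2l6 (-2.77), Ctse (-4.45) and Cldn13 (-4.78).

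The controls of the sets differed in most of these genes. For all 10 other genes that rose, every decanal-set control lay above every octanal-set control in the joint fit, and for all 10 that fell every one lay below. Mean control CPM in the decanal and octanal sets was 1057 and 337.1 for Gfy, 833.8 and 331.9 for Cmip, 25.6 and 5.55 for Kcng1, 6.57 and 45.1 for Rhd, and 2.87 and 29.4 for Cldn13 (n = 3 each). Of the 16 raised receptors 7 had decanal-set controls above without overlap and 9 overlapped, and for both lowered receptors they were below. The part of these gaps in the differences was not tested.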

How the results depend on the processing

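Of 597 recomputed values of the 46 named genes over the alternatives, 585 kept direction and call, 12 lost the call (Olfr536, Olfr281 and Olfr523) and 0 reversed. Genes called (6321) ranged from 3932 to 7044 with single libraries left out, the lowest without octanal replicate 1, those higher from 2413 to 3979 and those lower from 1519 to 3065. Scaling to the median receptor gene shifted the median of all genes by -0.18 and gave 1593 higher. Raised receptors ranged from 160 to 201 and receptors called either way from 173 to 236 with single libraries left out. Lowered receptors ranged from 13 to 40, were 13 with only the 6 libraries compared and 43 when scaled to the median receptor gene. Against cis-3-hexenol 178 to 272 receptors were called with single libraries left out, and the split of 142 above and 111 below became 167 and 63 with that scaling. Against decanal 160 to 190 were called. The rise in receptor share was 0.371 percentage points, 0.314 to 0.434 with single libraries left out and 0.229 without the 10 receptors with the largest rise. The receptor to marker difference of 0.0183 was 0.00280 to 0.0263. Medians of the trace amine receptor, skeletal muscle, potassium channel, electrophile response, oxidative phosphorylation and receptor lists changed sign over the alternatives.

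The replicate block gave 6498 genes and 225 receptors called. Same-numbered libraries correlated at 0.06, 0.03 and -0.03 in their deviations, and differently numbered ones at -0.09 to 0.06. Whether the numbers pair the mice cannot be told from these values. The causes of these shifts were not tested. Depth limits the genes near 0: of 1407 receptor genes 505 were not tested, and 248 of all receptor genes had no count in the 6 libraries.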
